A study of Rattus norvegicus with 8 samples.

Results

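The genes described here carry the response of a cell to lipopolysaccharide (LPS), from its receptor to targets of the transcription factor NF-kB. They are a fixed list of 6 rat Ensembl identifiers, set by name and not by a cut on measured values. Earlier results of these data were known when the list was set. It holds the receptor Tlr4 (ENSRNOG00000010522), the NF-kB inhibitor Nfkbia (ENSRNOG00000007390) and the chemokines Ccl2 (ENSRNOG00000007159) and Cxcl1 (ENSRNOG00000002802). It also holds the adhesion molecule Icam1 (ENSRNOG00000020679) and the cytokine Il6 (ENSRNOG00000010278). Of the 6, 4 were among the 9848 genes of the count table. The identifiers of Tlr4 and Il6 were not among them, and these genes were not analysed here. Of the 4, Nfkbia, Icam1 and Ccl2 were among the 7875 genes tested, whereas Cxcl1, with at most 6 counts in a library, lay under the minimum for testing.

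Poly(A) RNA came from the rat enteric glial cell line EGC/PK060399egfr, an established line grown by itself in culture, in 4 groups of 2 libraries. THC + LPS cells were given 0.1 µg/mL Δ9-tetrahydrocannabinol for 1 h before LPS, and THC-COOH + LPS cells were given 10 nM of its carboxylated metabolite for 1 h before LPS. LPS cells were given LPS alone, and Control cells were left untreated. LPS was from E. coli 0111:B4, at 1 µg/mL for 24 h per the labels, while the text of the paper's results names a shorter exposure. The cannabinoids were dissolved in ethanol, and no group with ethanol alone is named in the labels. Separate cultures are not named for the 2 libraries of a group, so the spread between them may be technical. The p-values rest on that spread, pooled over the groups and drawn toward that of other genes. The line was not checked against glial markers, because the tables used here do not pair the identifiers with symbols.

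LPS of the bacterial wall is handed by the co-receptor CD14 to a complex of TLR4 and its partner MD2 at the cell surface. The adaptor MyD88 then leads to the kinase complex IKK, which marks the inhibitor IκBα, the product of Nfkbia, for breakdown, and NF-kB enters the nucleus. Genes it switches on include chemokines, adhesion molecules and Nfkbia itself, whose new protein ends the signal, and enteric glia are among the gut cells known to take part in such responses.

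The promoters of Nfkbia, Cxcl1 and Icam1 in RefSeq (rat build GRCr8, 250 bases before to 50 bases after the annotated start) each held 1 match to the 9-base NF-kB motif GGAATTTCC on either strand. The promoters of Tlr4 and Il6 held 0 matches, so the motif was in 3 of the 5 listed promoters searched. The stretches around the match are shown because 3 of the 4 genes with counts hold it there. Each is written 5′ to 3′ on the strand of the gene, with the match in capitals.
Nfkbia: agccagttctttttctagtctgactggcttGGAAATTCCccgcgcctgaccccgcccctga
Cxcl1: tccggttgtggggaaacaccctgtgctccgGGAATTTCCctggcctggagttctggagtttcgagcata
Icam1: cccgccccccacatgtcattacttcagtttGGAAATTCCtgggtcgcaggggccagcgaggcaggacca
The Nfkbia stretch lies at chr6:78597073-78597133 on the minus strand, and its match begins at position -31 from the start. The Cxcl1 stretch lies at chr14:17479366-17479434 on the minus strand, with its match at position -83. The Icam1 stretch lies at chr8:27829597-27829665 on the plus strand, with its match at position -218. In Cxcl1 the letters read GGAATTTCC along the gene, and in Nfkbia and Icam1 they are those of the other strand. Of 33469 rat promoters of this length in the table, 111 (0.332%) held the motif, which was picked after these sequences had been seen. A longer NF-kB consensus had a match in 7.51% of the promoters, with 1 in Nfkbia, 2 overlapping ones in Cxcl1 and 1 in Il6, and none in Icam1 or Tlr4. It allows other letters inside the site but asks for GGG at its start or CCC at its end. A match to the motif thus need not match it, as in Icam1. Its matches in Nfkbia and Cxcl1 overlapped the motif, and that in Il6 did not. Ccl2 was not matched in the promoter table. A match describes letters in a window and does not show binding.

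Total counts were 1559935 and 715865 in THC + LPS, 1024351 and 930411 in THC-COOH + LPS, 879029 and 545779 in LPS, and 752742 and 778832 in Control, for library 1 and library 2. Between 9282 and 9717 genes had a count in a library. The 2 libraries of each group differed by more than counting noise, at a chi-square per degree of freedom between 1.66 and 2.05, and none were identical. Levels below are CPM, the count of a gene scaled to a common library size with edgeR's TMM factors, which lay between 0.986 and 1.02. In bulk RNA, fewer cells of a kind and less RNA per cell cannot be told apart.

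Nfkbia, the inhibitor that holds NF-kB in the cytoplasm, had the most counts of the 4 genes, 62 to 152 in a library. Its level was 97.4 and 118 CPM in THC + LPS, 89.5 and 110 CPM in THC-COOH + LPS, 95.5 and 115 CPM in LPS, and 89.9 and 83.1 CPM in Control. The 2 Control libraries were among the 3 lowest of the 8, with THC-COOH + LPS library 1 just under the higher of them. Library 2 was the higher one in each group with LPS and the lower one in Control. Group means were 108 ± 14.4 CPM in THC + LPS, 99.6 ± 14.3 CPM in THC-COOH + LPS, 105 ± 13.8 CPM in LPS and 86.5 ± 4.78 CPM in Control (SD, n = 2 each). From highest to lowest the means ran THC + LPS, LPS, THC-COOH + LPS and Control, and the libraries of every pair of neighbours in that order overlapped.

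Icam1, the cell surface ligand to which leukocyte integrins bind, had 19 to 55 counts in a library. Its level was 35.2 and 38.8 CPM in THC + LPS, 27.5 and 20.8 CPM in THC-COOH + LPS, 38.6 and 40.8 CPM in LPS, and 26.8 and 28.6 CPM in Control. The THC + LPS and LPS libraries lay above 35 CPM, and the THC-COOH + LPS and Control libraries below 29 CPM. This split was drawn after the values were seen. Exact Poisson intervals for counting error overlapped across the gap. They ran from 26.54 to 45.85 CPM in THC + LPS library 1 and from 17.91 to 43.27 CPM in Control library 2. The split thus does not establish separate levels. Group means were 37.0 ± 2.5 CPM in THC + LPS, 24.2 ± 4.73 CPM in THC-COOH + LPS, 39.7 ± 1.54 CPM in LPS and 27.7 ± 1.23 CPM in Control (SD, n = 2 each). In the order LPS, THC + LPS, Control, THC-COOH + LPS, libraries overlapped between the first pair and between the last pair, and not between THC + LPS and Control.

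Ccl2, the chemokine that draws monocytes, had 3 to 23 counts in a library. Its level was 7.69 and 16.6 CPM in THC + LPS, 16.7 and 14.3 CPM in THC-COOH + LPS, 26.1 and 5.57 CPM in LPS, and 10.7 and 7.79 CPM in Control. The highest and the lowest of the 8 libraries were both LPS cells. Their exact Poisson 95% intervals, 16.6 to 39.2 CPM for library 1 with 23 counts and 1.15 to 16.3 CPM for library 2 with 3 counts, did not overlap. Such intervals cover counting error only. Group means were 12.2 ± 6.31 CPM in THC + LPS, 15.5 ± 1.74 CPM in THC-COOH + LPS, 15.9 ± 14.6 CPM in LPS and 9.26 ± 2.08 CPM in Control (SD, n = 2 each), and every pair of neighbours in the order of means overlapped.

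Cxcl1, the chemokine that draws neutrophils, had 4 and 1 counts in THC + LPS, 0 and 6 counts in THC-COOH + LPS, 2 and 2 counts in LPS, and 0 and 0 counts in Control. It was thus counted in 5 of the 6 libraries with LPS and in 0 of the 2 Control libraries. Pooled over the libraries of a group, the level was 2.19 CPM in THC + LPS (exact Poisson 95% interval 0.711 to 5.11), 3.11 CPM in THC-COOH + LPS (1.14 to 6.77) and 2.82 CPM in LPS (0.768 to 7.22). In Control, with 0 counts, the same kind of interval ran from 0 to 2.4 CPM, and 3 counts over the group would be 1.98 CPM. Each of the 3 intervals of the groups with LPS reached below both of these values, so no fold is given. When every gene with a count was fitted, 9839 genes in all, Cxcl1 had an unadjusted p of 0.0644 for LPS against Control with edgeR's quasi-likelihood test, and an adjusted p of 0.747. For THC-COOH + LPS against Control these were 0.0447 and 0.634, and for THC + LPS against Control 0.0845 and 0.945. Both the highest count, 6, and a count of 0 came from THC-COOH + LPS.

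**Figure D1:**
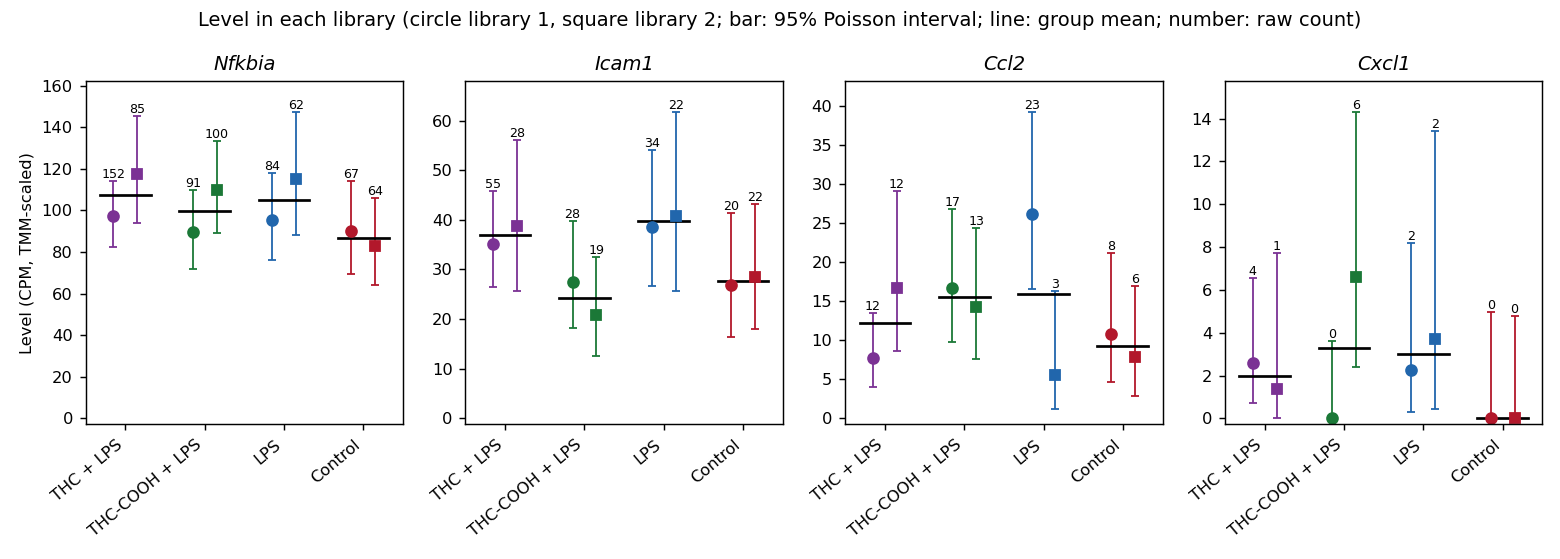
Level of Nfkbia, Icam1, Ccl2 and Cxcl1 in CPM in each of the 8 libraries by group, circles for library 1 and squares for library 2, with exact Poisson 95% intervals, the raw count above each and a black line at the group mean. The Icam1 points lie above 35 CPM in THC + LPS and LPS and below 29 CPM in the other groups, with intervals that overlap across this gap. The 2 LPS libraries of Ccl2 stand apart at 26.1 and 5.57 CPM.

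The first question was how the genes differed in LPS cells against untreated cells. All 3 tested genes had a higher mean in LPS than in Control, and 0 of 3 passed the test, which took an adjusted p (Benjamini-Hochberg over the 7875 genes) under 0.05 and a change above 1.6-fold in edgeR's quasi-likelihood fit of all 8 libraries. Of all genes tested, 3 (0.0381%) passed. Nfkbia had a log2 fold change of 0.26 ± 0.19 (SE, 95% interval -0.13 to 0.65, adjusted p = 0.859, edgeR). In this fit the interval ends below the 0.68 that corresponds to 1.6-fold. With DESeq2 the value was 0.27 ± 0.28 (SE), an error wide enough to reach past 0.68. Icam1 had a log2 fold change of 0.51 ± 0.30 (-0.12 to 1.14, adjusted p = 0.772, edgeR), and Ccl2 one of 0.93 ± 0.62 (-0.34 to 2.2, adjusted p = 0.806, edgeR), so changes above 1.6-fold in these 2 genes lay within the error.

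The libraries of LPS and Control did not overlap for Nfkbia and Icam1, 2 of 3 genes, and this held for 35.9% of all genes tested. An unadjusted p under 0.05 was reached by 0 of 3 genes with edgeR, DESeq2 and limma voom alike, beside 7.16% of all genes with edgeR. The median log2 fold change was 0.51 over the 3 genes and -0.01 over all genes. Beyond the size seen in Nfkbia lay 41.3% of all genes, beyond that in Icam1 16.8%, and beyond that in Ccl2 4.42%. Genes with few counts spread more. Among 384 genes with a mean count near that of Ccl2, the 5th and 95th percentiles were -0.98 and 0.93. Among 383 genes with a mean count near that of Icam1 they were -0.56 and 0.51. Ccl2 and Icam1 thus both sat at the upper edge of their like. For Nfkbia, among 392 genes, the percentiles were -0.38 and 0.34, and Nfkbia lay between them.

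The Ccl2 value rested on LPS library 1. Without that library its log2 fold change against Control was -0.73 ± 0.98 (unadjusted p = 0.446 in the fit across genes by edgeR), and without LPS library 2 it was 1.5 ± 0.57 (unadjusted p = 0.0142, adjusted p = 0.785). With the mean of the 3 groups that had LPS set against Control, an alternative chosen after seeing the data, the log2 fold changes were 0.25 ± 0.15 for Nfkbia, 0.24 ± 0.25 for Icam1 and 0.64 ± 0.53 for Ccl2, with adjusted p from 0.796 to 0.891.

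The second question was how the genes differed when THC had been given before LPS. Nfkbia and Icam1 had nearly the same means in THC + LPS and in LPS, and Ccl2 a lower one with a wide error. None of the 3 passed the test (0 of 3), beside 2 (0.0254%) of all genes. The log2 fold change against LPS was 0.02 ± 0.17 for Nfkbia (SE, 95% interval -0.34 to 0.38, adjusted p = 0.989, edgeR) and -0.11 ± 0.27 for Icam1 (-0.68 to 0.45, adjusted p = 0.98, edgeR). Both edgeR intervals lay within 1.6-fold in either direction, that of Icam1 only just. With DESeq2 Icam1 had -0.10 ± 0.44 (SE), an error wide enough to reach past 1.6-fold. Ccl2 had -0.69 ± 0.55 (-1.82 to 0.45, adjusted p = 0.904, edgeR), an interval that reaches beyond 1.6-fold lower but not 1.6-fold higher.

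The libraries of THC + LPS and LPS lay apart for 0 of 3 genes and for 36.5% of all genes, and 0 of 3 had an unadjusted p under 0.05 by edgeR, DESeq2 or limma voom, beside 6.16% of all genes with edgeR. The median log2 fold change was -0.11 over the 3 genes and 0.00 over all genes. The size seen in Nfkbia was exceeded by 93.1% of all genes, that in Icam1 by 68% and that in Ccl2 by 8.04%. Ccl2 again turned with 1 library: its value was 0.98 ± 0.95 without LPS library 1 and -1.27 ± 0.52 without LPS library 2 (unadjusted p = 0.0239, adjusted p = 0.822, edgeR).

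The third question was how the genes differed when THC-COOH had been given before LPS. Icam1 had a lower mean, at 24.2 CPM in THC-COOH + LPS against 39.7 CPM in LPS, and its libraries lay apart in these groups. Its log2 fold change was -0.70 ± 0.30 (SE, 95% interval -1.32 to -0.09, a fold of 0.615), with an unadjusted p of 0.0267 by edgeR, and an adjusted p of 0.708 that did not pass. Nfkbia had -0.06 ± 0.18 (-0.43 to 0.30, adjusted p = 0.974, edgeR), again within 1.6-fold in either direction. Ccl2 had -0.18 ± 0.53 (-1.28 to 0.91, adjusted p = 0.974, edgeR). Thus 0 of 3 genes passed the test, beside 0 (0%) of all genes tested.

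Icam1 was the 1 gene of the 3 with an unadjusted p under 0.05 and the 1 whose libraries lay apart. Of all genes, 6.70% had such a p and 36.3% lay apart. With limma voom the unadjusted p of Icam1 was 0.0244, and with DESeq2 it was 0.12. It was over 0.05 without LPS library 1 (0.074), LPS library 2 (0.074) or THC-COOH + LPS library 2 (0.141), and its log2 fold change ranged from -0.93 to -0.52 as each library was left out. Among 383 genes with a mean count near that of Icam1, the 5th and 95th percentiles of the log2 fold change were -0.56 and 0.60. Icam1 lay outside that range, as a fixed share of genes does by definition. Over all genes, 8.28% exceeded the size seen in Icam1, 82.7% that in Nfkbia and 52.9% that in Ccl2. Ccl2 had 1.48 ± 0.94 without LPS library 1 and -0.75 ± 0.50 without LPS library 2. The median log2 fold change was -0.18 over the 3 genes and 0.00 over all genes.

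**Figure D2:**
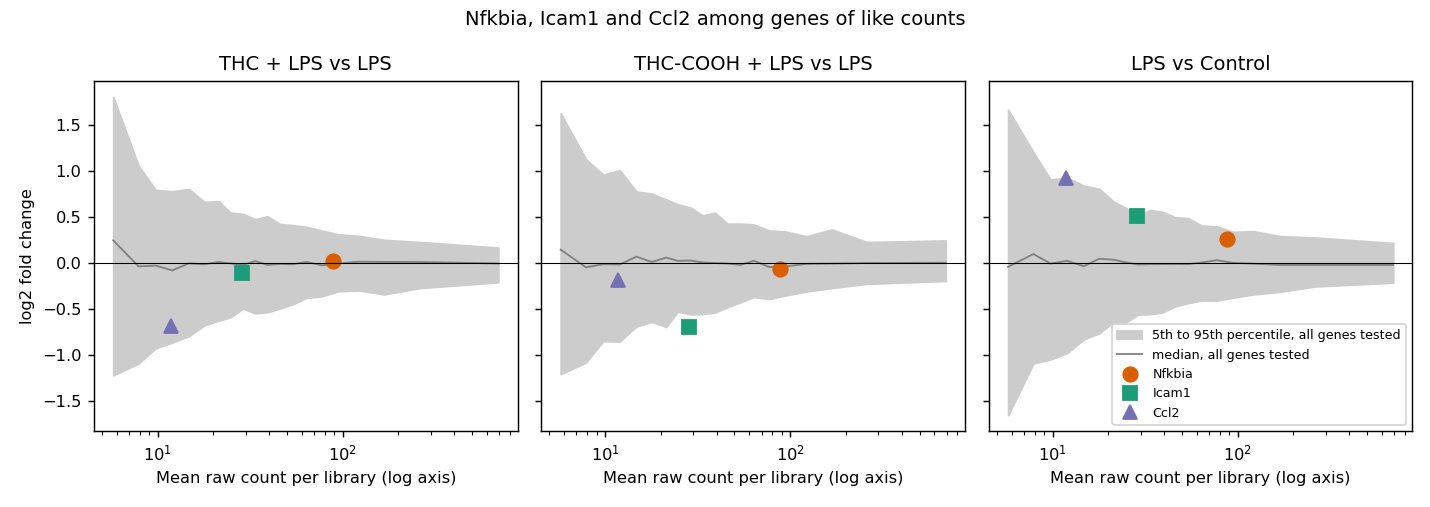
log2 fold change in 3 comparisons against the mean raw count per library (log axis), with the 5th to 95th percentile of all genes tested in grey and Nfkbia, Icam1 and Ccl2 as symbols. Icam1 lies below the grey band in THC-COOH + LPS vs LPS (-0.70). Ccl2 (0.93) and Icam1 (0.51) sit at the edge of the band in LPS vs Control.

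THC and THC-COOH differ in structure by the methyl group of the tetrahydrocannabinol ring system that is a carboxylic acid in the metabolite. They were given at unlike doses, 0.1 µg/mL and 10 nM, so their values stand side by side and were not tested against each other. The comparisons with LPS also share the LPS libraries. For Icam1 the log2 fold changes against LPS were -0.11 with THC and -0.70 with THC-COOH, for Ccl2 -0.69 and -0.18 in the same order, and for Nfkbia 0.02 and -0.06.

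Against untreated cells, which these comparisons share, Nfkbia in THC + LPS had a log2 fold change of 0.28 ± 0.18 (95% interval -0.08 to 0.65, adjusted p = 0.931, edgeR), Icam1 0.40 ± 0.29 (-0.20 to 1.00, adjusted p = 0.941) and Ccl2 0.24 ± 0.62 (-1.03 to 1.52, adjusted p = 0.985). The 3 genes were all higher in THC + LPS than in Control by their means, and 0 of 3 passed the test, beside 0.0508% of all genes. Libraries lay apart for Nfkbia and Icam1, as for 34.7% of all genes, and an unadjusted p under 0.05 was found for 0 of 3 genes by edgeR, DESeq2 or limma voom and, by edgeR, for 5.33% of all genes. Ccl2 had -0.27 without THC + LPS library 2.

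In THC-COOH + LPS against Control, Nfkbia had a log2 fold change of 0.20 ± 0.18 (95% interval -0.18 to 0.57, adjusted p = 0.823, edgeR), Icam1 -0.19 ± 0.31 (-0.83 to 0.46, adjusted p = 0.915) and Ccl2 0.75 ± 0.60 (-0.49 to 1.99, adjusted p = 0.79). None passed (0 of 3), beside 0.0762% of all genes. Ccl2 was the 1 gene whose libraries lay apart, at 16.7 and 14.3 CPM in THC-COOH + LPS and 10.7 and 7.79 CPM in Control, as 38.2% of all genes did. An unadjusted p under 0.05 was found for 0 of 3 genes by edgeR, DESeq2 or limma voom and, by edgeR, for 8.43% of all genes. The median log2 fold change over the 3 genes was 0.28 in THC + LPS and 0.20 in THC-COOH + LPS against Control, beside 0.00 and 0.01 over all genes.

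**Figure D3:**
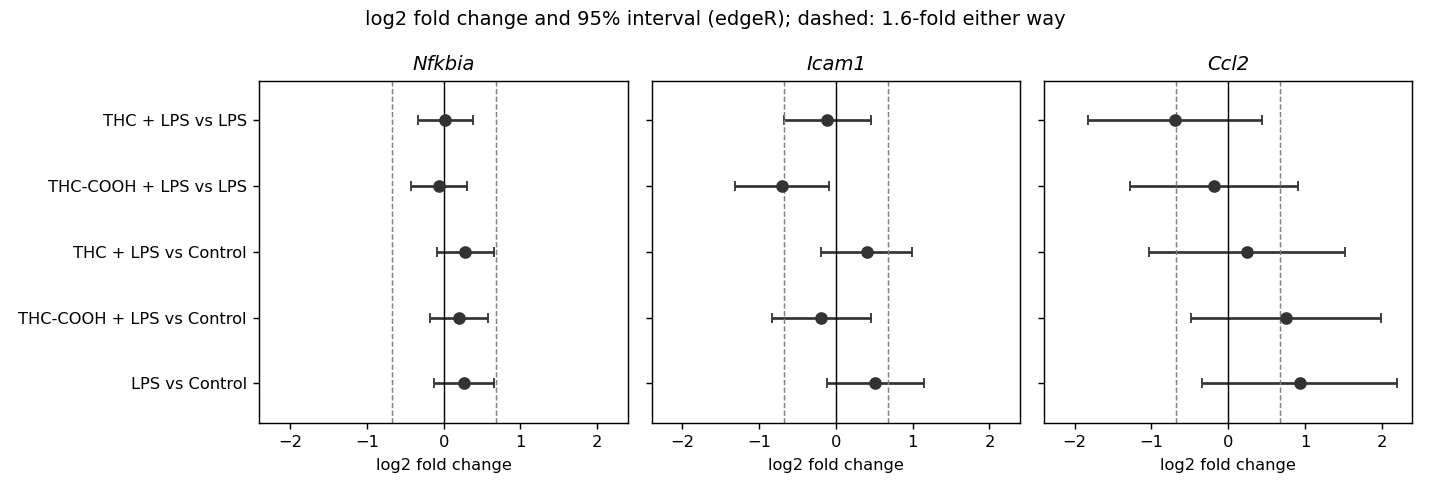
log2 fold change (points) with 95% interval (bars) of Nfkbia, Icam1 and Ccl2 in the 5 comparisons, from edgeR on 2 libraries a group, with dashed lines at 1.6-fold. All intervals of Nfkbia lie inside the dashed lines, and 1 of the 15 intervals leaves out 0, that of Icam1 in THC-COOH + LPS vs LPS (-1.32 to -0.09).

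Asked over all 4 groups at once, Icam1 had the smallest p of the 3 genes (F test of edgeR, unadjusted p = 0.0798, adjusted p = 0.678), followed by Ccl2 (adjusted p = 0.841) and Nfkbia (adjusted p = 0.861). An adjusted p under 0.05 was reached by 0 of 3 genes and by 37 (0.470%) of all genes, and an unadjusted p under 0.05 by 8.04% of all genes. The estimated spread between libraries beyond counting error also differed among the genes. Counting error adds to it, and the SE in LPS against Control was 0.19 for Nfkbia, 0.30 for Icam1 and 0.62 for Ccl2. The biological coefficient of variation was 0.0770 for Nfkbia, 0.0912 for Icam1 and 0.246 for Ccl2, beside 0.0904 for all genes in common. The trend over genes of like abundance gave 0.0794, 0.122 and 0.182 in the same order, so part of the difference goes with the counts.

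Whether the genes shared a pattern over the 8 libraries could not be told, since counting noise at few counts can pull correlations toward 0. On log2 CPM, Pearson's r was 0.33 for Nfkbia with Icam1, -0.01 for Nfkbia with Ccl2 and -0.07 for Ccl2 with Icam1, as a description over libraries that share their groups and depth. Cxcl1, at 0 to 6 counts, had 0.72 with Nfkbia, 0.04 with Icam1 and -0.03 with Ccl2. Of 3130 other genes with a mean of at least 50 counts, ENSRNOG00000004686 followed Nfkbia most closely, with r = 0.90 over 8 libraries and a range of 52.0 to 88.8 CPM. Of 3131 such genes, ENSRNOG00000002722 followed Icam1 most closely, with r = 0.94 and a range of 128 to 172 CPM. The gene next in likeness was nearly as close in both cases, at 0.90 and 0.93. The highest of so many values over 8 libraries is high by selection, and it was not tested.

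**Figure D4:**
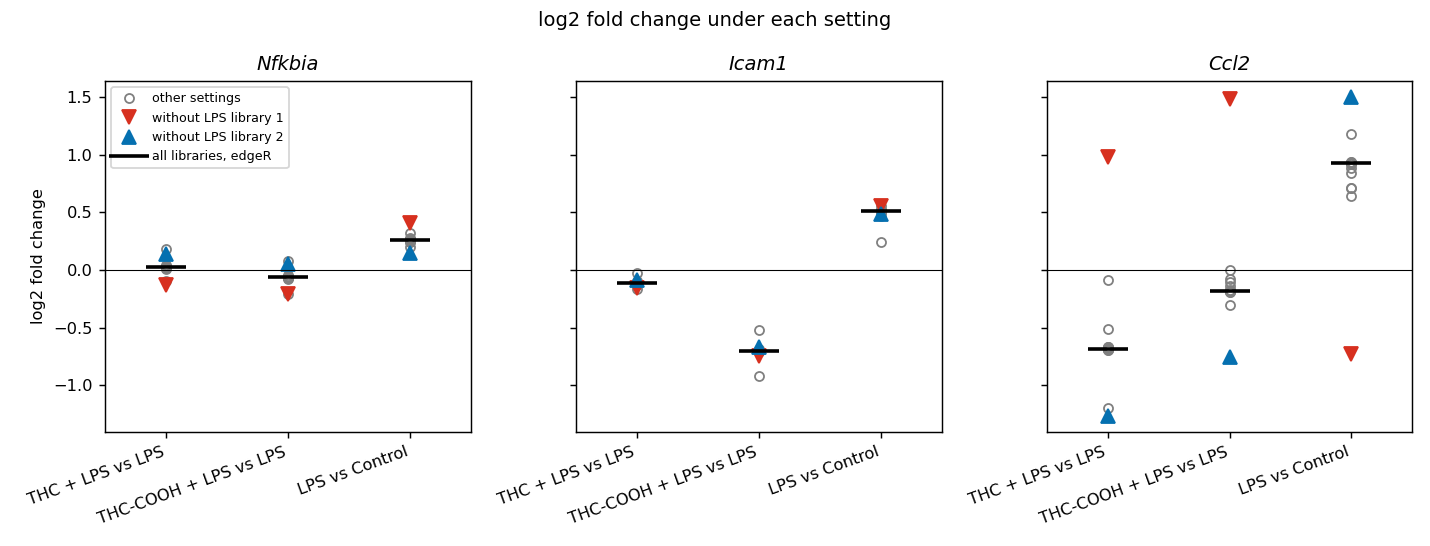
log2 fold change of Nfkbia, Icam1 and Ccl2 in 3 comparisons under every setting, with all libraries in edgeR (black bar), without LPS library 1 (red), without LPS library 2 (blue) and the others (open circles). Ccl2 takes opposite signs without LPS library 1 and without LPS library 2 in all 3 comparisons, as in LPS vs Control (-0.73 and 1.5), whereas Icam1 keeps its sign.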

How the data were processed

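Poly(A) RNA of 8 libraries, 2 in each of 4 groups, was sequenced by bulk MARS-seq, a 3′-end protocol. The submitters' processing notes name HTSeq, STAR 2.7.3a, cutadapt and bcl2fastq 2.20.0.422 with build Rnor_6.0, and the authors deposited raw counts per Ensembl gene. They also deposited a normalized signal, in which each library's counts are divided by its DESeq2 size factor (0.638 to 1.84), which was checked and not used further. The annotation release is not given in the sources used here, nor is any handling of molecular identifiers.

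Genes with a raw count above 10 in some library (7875 of 9848, of which 9 had no count at all) were fitted with edgeR 4.0.16 in R 4.3.3 (TMM, quasi-likelihood F test, all 8 libraries, 1 coefficient per group, 4 residual and 19.7 prior degrees of freedom). Standard errors are Wald errors of that fit. The thresholds and the count minimum are those of the paper's methods, which used DESeq2 1.26.0. An exact permutation test of 2 against 2 libraries cannot go below p = 0.333. Totals of 545779 to 1559935 counts set the precision. Tests were tried on simulated data.

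All listed genes in the table are described, and for the 2 with the most counts the gene most alike over the libraries is named. The list and the tests were chosen with earlier results of these data known. Identifiers were paired with symbols by the list that defines the genes. Of 47357 rat genes of GRCr8 used here, 0 carried one, so lists of pathway genes and cell type markers were not run. The labels also name cells with Sparstolonin B, not analysed here.

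Alternatives were other size factors and filters, DESeq2 1.42.0, limma voom (limma 3.58.1), a fit of only the 4 libraries compared, no minimum fold, a replicate block and each library left out. The mean of the 3 LPS groups against Control was added after the data were seen. Where a library was left out, the spread of the lone one was taken from the other groups. Figures were drawn with matplotlib 3.10.9.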

Additional observations from a re-analysis of the deposited data

How the results depend on the processing

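The count of listed genes that passed was 0 of 3 in each comparison under every alternative run, and Cxcl1 entered only the fit of every gene with a count. Of 243 log2 fold changes under alternatives, 9 changed sign. For Ccl2 these were -0.73 (LPS against Control), 0.98 (THC + LPS against LPS) and 1.48 (THC-COOH + LPS against LPS) without LPS replicate 1, 0.00 (0.0016) for THC-COOH + LPS against LPS with limma voom, and -0.27 for THC + LPS against Control without THC + LPS replicate 2. For Nfkbia they were -0.13 and -0.093 for THC + LPS against LPS, without LPS replicate 1 and without THC + LPS replicate 2, and 0.052 and 0.080 for THC-COOH + LPS against LPS, without LPS replicate 2 and without THC-COOH + LPS replicate 1. With each library left out, Ccl2 ranged over -0.73 to 1.5, -1.27 to 0.98, -0.75 to 1.48 and -0.27 to 0.85 in LPS against Control, THC + LPS against LPS, THC-COOH + LPS against LPS and THC + LPS against Control, and Nfkbia over -0.13 to 0.19 and -0.21 to 0.080 in THC + LPS and THC-COOH + LPS against LPS. The cause was not tested.

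Taken over all genes tested, deviations from the group means had correlations of -0.03 to 0.04 over 6 pairs of groups. Counting noise in genes with few counts pulls such values toward 0, so they cannot show whether libraries were paired by replicate number. More genes were called with the replicate block, as given below. Pairing in a subset of genes was not tested. With the replicate block in edgeR, Icam1 in THC-COOH + LPS against LPS was -0.70 (adjusted p = 0.69). Genes called over the whole table were 3 in LPS against Control, 2 in THC + LPS against LPS, 0 in THC-COOH + LPS against LPS, 4 in THC + LPS against Control, 6 in THC-COOH + LPS against Control and 37 over all groups. In that order they were 8, 18, 8, 15, 13 and 64 with the block, 1, 3, 0, 1, 3 and 12 with DESeq2, 1, 1, 0, 3, 3 and 25 with limma voom, and 11, 16, 9, 14, 14 and 69 with every gene with a count. With 1 library left out they ranged over 2 to 10, 1 to 10, 0 to 9, 0 to 8, 1 to 7 and 10 to 43. At 3 to 23 counts a library, the 95% interval of Ccl2 reached beyond 1.6-fold in all 5 comparisons.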
